A study of Mus musculus with 2 samples.

Results

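Stard4, Acsl3, Acacb, Acot1 and Hsd17b7 encode proteins that move or make sterols, or that activate, build or hydrolyse fatty acyl groups. They were chosen by their measured ratios between clones, together with their place in lipid pathways, so the ratios below are a description and carry no test. All probe sets with exactly 1 of these 5 symbols in the platform annotation were taken, which gave 7 probe sets out of 12411 (controls left aside), for 5 of the 7542 gene symbols. The samples were 2 clones of mesoangioblasts, D16 and D351, which are vessel-associated mesodermal progenitor cells. Both clones came from explanted dorsal aorta of day 9.5 embryos of C57BL6 mice, dissociated after 5 days and cloned on a feeder layer of embryonic fibroblasts in medium with 20% fetal calf serum, then passed on gelatin. The labels name no genotype, treatment or time that differed between the clones, and each clone is a single clonal line. Total RNA of each was hybridised to 1 MG-U74B array, so no value has a replicate error.

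Cells take up sterol or make it from acetyl-CoA through a long chain of enzymes in the endoplasmic reticulum, and soluble carriers then move it between membranes. Fatty acids enter metabolism once a synthetase joins them to coenzyme A, and thioesterases reverse that step. Acetyl-CoA carboxylases make malonyl-CoA, which feeds fatty acid synthesis and holds back the entry of fatty acyl groups into mitochondria. The transcription factors of the SREBP family control many sterol and fatty acid genes, and PPAR receptors, which bind fatty acids, control many genes of fatty acyl breakdown.

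The bases before the transcription start are shown for 4 members, because they are the stretch in which short promoter motifs were looked for and 3 of these 4 genes were lower in D351. The sequences are from a table of RefSeq promoter windows (GRCm38.p6), in which 4 of the 5 members were matched (not Stard4), and each is the 250 bases before the start, written 5′ to 3′ on the gene's strand. Capitals mark 3 motifs on either strand: the CCAAT box, the GC box GGGCGG and the E-box CACGTG. The windows are Acsl3 (chr1:78657575-78657824, plus strand), Acacb (chr5:114165268-114165517, plus strand), Acot1 (chr12:84009252-84009501, plus strand) and Hsd17b7 (chr1:169969206-169969455, minus strand).
Acsl3: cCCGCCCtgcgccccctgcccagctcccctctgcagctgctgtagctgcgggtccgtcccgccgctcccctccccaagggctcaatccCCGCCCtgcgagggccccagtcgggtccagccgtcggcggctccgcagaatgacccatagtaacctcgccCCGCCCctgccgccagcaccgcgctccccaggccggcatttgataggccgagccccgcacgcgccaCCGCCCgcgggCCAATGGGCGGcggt
Acacb: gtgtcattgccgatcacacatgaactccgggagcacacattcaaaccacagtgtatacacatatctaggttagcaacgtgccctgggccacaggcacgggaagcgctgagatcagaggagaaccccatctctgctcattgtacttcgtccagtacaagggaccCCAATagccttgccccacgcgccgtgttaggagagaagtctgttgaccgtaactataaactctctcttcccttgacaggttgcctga
Acot1: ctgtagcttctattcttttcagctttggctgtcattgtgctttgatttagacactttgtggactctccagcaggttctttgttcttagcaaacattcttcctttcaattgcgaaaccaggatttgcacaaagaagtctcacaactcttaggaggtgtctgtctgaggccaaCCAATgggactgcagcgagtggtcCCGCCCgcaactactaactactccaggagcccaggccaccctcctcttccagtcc
Hsd17b7: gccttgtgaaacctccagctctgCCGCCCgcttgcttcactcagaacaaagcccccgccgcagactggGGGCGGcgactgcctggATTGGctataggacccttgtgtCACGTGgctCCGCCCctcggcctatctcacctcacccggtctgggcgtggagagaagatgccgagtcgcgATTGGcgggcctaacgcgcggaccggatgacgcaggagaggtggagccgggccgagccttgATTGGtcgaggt

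A CCAAT box, the letters bound by the factor NF-Y, was found in 4 of these 4 windows and in 33.8% of the 32851 windows of the whole table. It lay 15 to 11 bases before the start in Acsl3, directly followed by a GC box, and 79 to 75 bases before it in Acot1 and 87 to 83 in Acacb. Hsd17b7 held 3 CCAAT boxes, all on the opposite strand. A GC box was found in 3 of the 4 windows (Acsl3, Acot1 and Hsd17b7), against 32.7% of all windows. Base composition differed between them, with 75.6% G and C in Acsl3, 65.6% in Hsd17b7, 52.4% in Acacb and 48.8% in Acot1, and a median of 52.4% over all windows. The E-box was found in Hsd17b7 alone (6.02% of all windows). The core of the sterol regulatory element, searched as TCACNCCA, and the nuclear receptor half-site AGGTCA were found in 0 of the 4 windows, against 3.67% and 14.0% of all windows. These are matches of letters within 250 bases, and no binding was measured. The CCAAT box stood in genes of both directions, in Acsl3, Acacb and Acot1, which were lower in D351, and in Hsd17b7, which was higher.

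The arrays had similar bulk signal, with medians of 16.7 in D16 and 16.9 in D351 and a trimmed mean of 39.8 on each. A floor of 16.8, the pooled median, was set under all values before ratios were taken, and 49.9% and 50.3% of probe sets reached it. Where the dimmer array lay under the floor, the ratio is a bound, and where both did, there is no ratio. Ratios are of D351 over D16 on the log2 scale, and the size rule is a 2-fold difference. Of 9 probe sets for spiked hybridisation controls that reached the floor, 8 were higher on the D16 array, with a median 1.44-fold. Some of these probe sets read the same spiked transcript, so they are not independent, and their part in the results was not tested. Of the markers for the labelled cells, 0 of 5 mesoangioblast surface genes were on the array, 1 of 6 smooth muscle markers on it reached the floor (Myh11, 36.8 and 35.6), as did 1 of 3 pericyte markers (Cspg4, 83.3 in D16 and 26.1 in D351). Of 2 endothelial markers Flt1 read 10.3 and 44.5, and Eng reached the floor on neither array.

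In total 4 of the 5 members (Stard4, Acsl3, Acacb and Acot1) were at least 2-fold lower in D351 and 1 (Hsd17b7) was at least 2-fold higher. Over all 4916 measured genes these shares were 8.58% and 9.5%. Because the members were picked for such differences, nothing is read from their count against those shares. By probe set, 4 of 7 were at least 2-fold lower and 1 at least 2-fold higher, against 7.99% and 9.23% of 6920 measured probe sets. The remaining probe sets were a second one for Stard4, short of 2-fold in the same direction, and a second one for Acsl3 under the floor on both arrays.

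**Figure D1:**
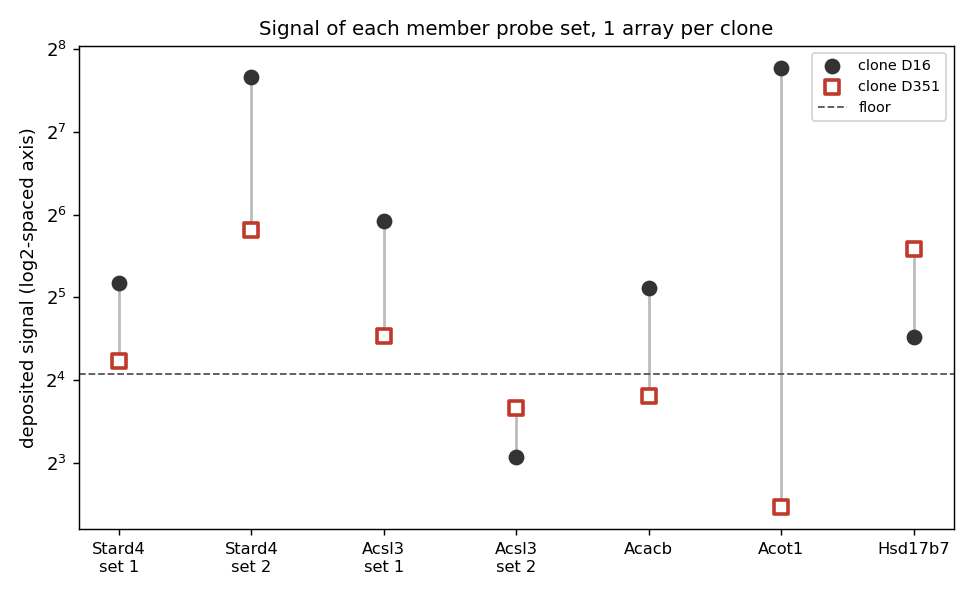
Deposited signal (log2-spaced axis) of the 7 member probe sets on the D16 array (filled circles) and the D351 array (open squares), with the floor of 16.8 as a dashed line. Acot1 spans 219.2 to 5.5, both Stard4 probe sets lie higher in D16, and Hsd17b7 and the dim second Acsl3 probe set lie higher in D351.

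Stard4 encodes a small soluble protein with a START domain that carries cholesterol between membranes, and its gene is known as a target of the SREBP pathway. Its brighter probe set (116072_at) read 202.6 in D16 and 56.2 in D351. Its other probe set (113753_at) read 36.1 and 18.8. Both reached the floor on both arrays, and both were higher in D16. The log2 ratios were -1.85 (3.60-fold lower in D351) and -0.94 (1.92-fold lower), a gap of 0.91 between 2 readings of 1 transcript on the same arrays. For the 1113 genes measured by several probe sets, the median gap between the brightest pair was 0.41 and 18.0% had a gap of at least 0.91. Among 5509 probe sets that reached the floor on both arrays, 1.54% had a ratio as low as the brighter Stard4 probe set and 8.75% as low as the dimmer one.

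Acot1 encodes a cytosolic thioesterase that splits long-chain acyl-CoA into free fatty acid and coenzyme A, and it is known as a PPAR alpha target in liver and heart. Its single probe set (164261_at) read 219.2 in D16 and 5.5 in D351. Signal was above the floor in D16 and under it in D351, so the log2 ratio of -3.71 is a bound (at least 13.0-fold lower in D351). Acot1 has a close paralogue, Acot2, the mitochondrial enzyme encoded next to it, and cross-hybridisation between their transcripts was not tested. The Acot2 probe set read 309.7 and 166.7 (log2 -0.89, 1.86-fold lower in D351). In D351 the Acot1 probe set was under the floor and the Acot2 probe set above it, which is no test of cross-hybridisation in either direction.

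Acsl3 encodes a long-chain acyl-CoA synthetase of the endoplasmic reticulum and lipid droplets. One probe set (108041_at) read 60.8 in D16 and 23.2 in D351, a log2 ratio of -1.39 (2.62-fold lower in D351). The other (165246_r_at, whose ending _r marks a design made under relaxed rules) read 8.4 and 12.7, under the floor on both arrays. The Acsl3 ratio therefore rests on 1 probe set, and the dim one gave no ratio. Among the same 5509 probe sets, 3.38% had a ratio as low as that of Acsl3.

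Acacb encodes acetyl-CoA carboxylase 2, whose malonyl-CoA at the outer mitochondrial membrane inhibits the import of fatty acyl groups for oxidation. Its probe set (111254_at) read 34.7 in D16 and 14.0 in D351. The D351 value lay under the floor, and the log2 ratio of -1.05 is a bound (at least 2.07-fold lower in D351). Hsd17b7 encodes a ketosteroid reductase of the cholesterol synthesis pathway that can also reduce estrone to estradiol. It read 23.0 in D16 and 48.0 in D351 on a probe set with the ending _i (162726_i_at), which marks an incomplete design. The log2 ratio was 1.06 (2.09-fold higher in D351), and 6.95% of those 5509 probe sets were as high. Hsd17b7 lay just inside the 2-fold size rule, and Dlc1, a START domain protein (34.0 and 67.7, 1.99-fold higher), lay just outside it. For bounds the floor sets the place: Acacb passed at a bound of 2.07-fold and Acss2, a cytosolic acetyl-CoA synthetase (33.5 and 10.8), did not at a bound of 1.99-fold.

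**Figure D2:**
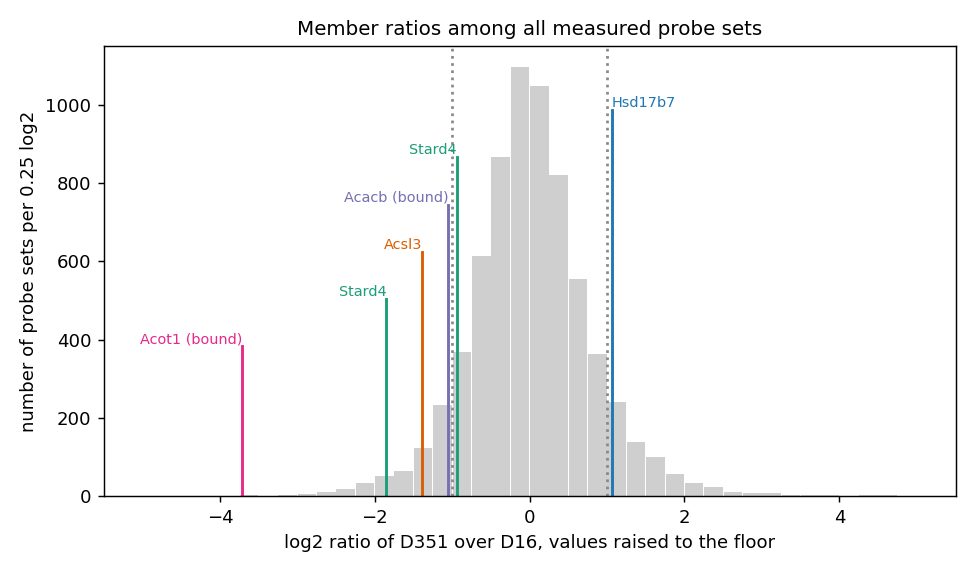
Number of measured probe sets (y axis, per 0.25 log2) by log2 ratio of D351 over D16 (x axis), with a coloured line at each member's ratio (line height has no meaning) and dotted lines at 2-fold. Acot1 at -3.71 lies in the far left tail, while Acacb at -1.05, the dimmer Stard4 probe set at -0.94 and Hsd17b7 at 1.06 lie close to the 2-fold lines.

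The share of probe sets past 2-fold was also taken by signal. The measured probe sets were divided into 3 bins of near-equal size by mean log2 signal, after values were raised to the floor. In the brightest bin, which held the brighter one of Stard4, 8.11% were at least 2-fold lower in D351. In the middle bin, which held those of Acsl3, Acot1 and Hsd17b7, 11% were at least 2-fold lower and 11.5% at least 2-fold higher. In the dimmest bin, which held Acacb and the dimmer Stard4 probe set, 4.90% were at least 2-fold lower. Means in that bin ran only from 16.8, the floor itself, to 30.1. The floor therefore limits how large a ratio can be there, and nothing is read from its lower share.

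The other genes of the members' pathways went both ways. The pathway lists held 266 further genes, of which 115 were on the array and 75 were measured. Of these 75, 5 (6.67%) were at least 2-fold lower in D351, 6 (8.0%) were at least 2-fold higher, and the median log2 ratio was 0.05 against -0.01 over all measured genes. These shares lay near those of all measured genes.

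Genes of START domain proteins stood on both sides. Stard5, a close relative of Stard4 that binds cholesterol and bile acids, read 340.8 in D16 and 56.3 in D351, and 201.6 and 29.5 on another probe set. Both probe sets were thus lower in D351, 6.05-fold and 6.83-fold. Stard6 (28.9 and 49.4, log2 0.77), Stard8 (3.2 and 36.5, log2 at least 1.12) and the ceramide carrier Cert1 (208.4 and 274.0, log2 0.39, with its other probe sets under the floor) were higher in D351. The steroidogenic Star was under the floor on both arrays (1.3 and 6.4). Of 8 measured genes in the START domain list, 3 were at least 2-fold lower (Stard4, Stard5 and Acot11) and 1 at least 2-fold higher (Stard8). The list also holds Stard3nl (209.9 and 151.7), a relative of this family that lacks the domain. Over all measured genes the shares were 8.58% lower and 9.5% higher, and Stard4 was picked for its ratio. Among 15 measured genes of sterol transport and storage, 3 were at least 2-fold lower and 1 at least 2-fold higher, with a median log2 ratio of -0.16 (0.21 with the floor at the 25th percentile, 4.6). Besides Stard4 and Stard5, the other lower gene was Osbpl3, an oxysterol-binding protein relative (109.4 and 44.1, 2.48-fold, with another probe set under the floor), and the higher one was its relative Osbpl7 (12.2 and 43.4, at least 2.58-fold).

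Of 9 measured genes of sterol synthesis, Hsd17b7 alone was past 2-fold, and it was picked for its ratio. Over all measured genes 8.58% were at least 2-fold lower and 9.5% at least 2-fold higher, so nothing is read from this count. Of the 9 genes, 5 had a ratio below 0, and the median log2 ratio was -0.22. The median turned to 0.42 when the floor was raised to the 75th percentile (53.5). Hsd17b7 has no value when only plain probe sets are kept. Lss, which closes the sterol rings, read 34.5 and 27.5 (log2 -0.33), and Cyp51, the lanosterol demethylase, read 38.3 and 32.5 (-0.24). Nsdhl, which acts with Hsd17b7 in removing methyl groups from the sterol ring, read 29.2 and 22.8 (-0.36), in the other direction from Hsd17b7. Sc5d, a desaturase late in the pathway, read 48.7 and 86.3 (0.83). The other 17-beta hydroxysteroid dehydrogenases on the array (Hsd17b2, Hsd17b6, Hsd17b10, Hsd17b12 and Hsd17b13) were under the floor in both clones.

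Among the controllers of these genes, Srebf2, the SREBP that drives sterol genes, did not reach the floor (0.5 and 0.1). Its escort protein Scap read 287.2 and 249.8 (log2 -0.20), with another probe set under the floor on both arrays. Insig1, which retains the SREBP complex, read 23.0 and 29.1 (0.34), and Insig2 read 150.7 and 174.5 (0.21), with 0.45 on another probe set. The Scap, Insig1 and Insig2 signals differed between clones by less than 1.5-fold. Mylip, a ubiquitin ligase for the LDL receptor that sterols induce, read 33.2 and 154.6 (4.66-fold higher in D351). Prkaa2, a catalytic subunit of the AMP-activated kinase that phosphorylates acetyl-CoA carboxylases, read 53.6 and 9.7 (at least 3.19-fold lower in D351), and a second probe set gave a log2 ratio of at most -1.10. The other catalytic subunit, Prkaa1, read 69.3 and 89.2 (0.36), and the regulatory subunit Prkab2 had log2 ratios of 0.96, 0.89 and 0.83 on plain probe sets and at least 1.95 on a _g probe set. Over the 10 measured genes of this list the median was 0.35, and 2 were below 0.

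In fatty acid synthesis, elongation and desaturation, Acacb alone of 11 measured genes was past 2-fold, and 7 were below 0 (median log2 -0.33). Acaca, the cytosolic carboxylase paralogous to Acacb, read 139.6 and 82.4 (log2 -0.76, 1.69-fold lower in D351). Neither probe set of Fasn, the fatty acid synthase, reached the floor, and the brighter one read 4.7 and 2.7. The desaturase Fads2 read 69.8 and 60.3 (-0.21), with -0.84 on another probe set, and Fads3 read 223.6 and 178.0 (-0.33). In the other direction, Hacd1 read 98.4 and 166.1 (0.76, 1.69-fold higher in D351). Me1 read 9.6 and 30.0 (at least 0.84, an _r probe set).

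Among acyl-CoA synthetases, the paralogues Acsl4 (11.1 and 9.9) and Acsl6 (7.0 and 0.7) were under the floor on both arrays. Slc27a1, a fatty acid transporter with synthetase activity, read 122.6 and 78.8 (log2 -0.64, 1.56-fold lower in D351). Acbd3, a Golgi protein with an acyl-CoA binding domain, was higher in D351 on all 4 of its probe sets, with 90.7 and 191.5 on the brightest (2.11-fold, an _f probe set). Of 7 measured genes in the acyl-CoA thioesterase list, Acot1, Acot11 and Ppt1 reached the floor in D16 alone, so their ratios could only lie below 0. Acot11, a thioesterase with a START domain, read 59.0 and 6.1 (at least 3.51-fold lower in D351). Ppt1, a lysosomal thioesterase, read 17.1 and 5.7, which gives a bound near 0 and no size. Besides Acot2, the genes at the floor on both arrays were Nudt19 (46.0 and 30.6, log2 -0.59), Nudt7 (21.2 and 16.8, -0.34) and Them4 (49.7 and 40.4, -0.30, with another probe set under the floor), each short of 2-fold. Nudt19 and Nudt7 are in the list but encode Nudix hydrolases, which are not thioesterases. Acot3 and Acot12 were under the floor in both clones.

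**Figure D3:**
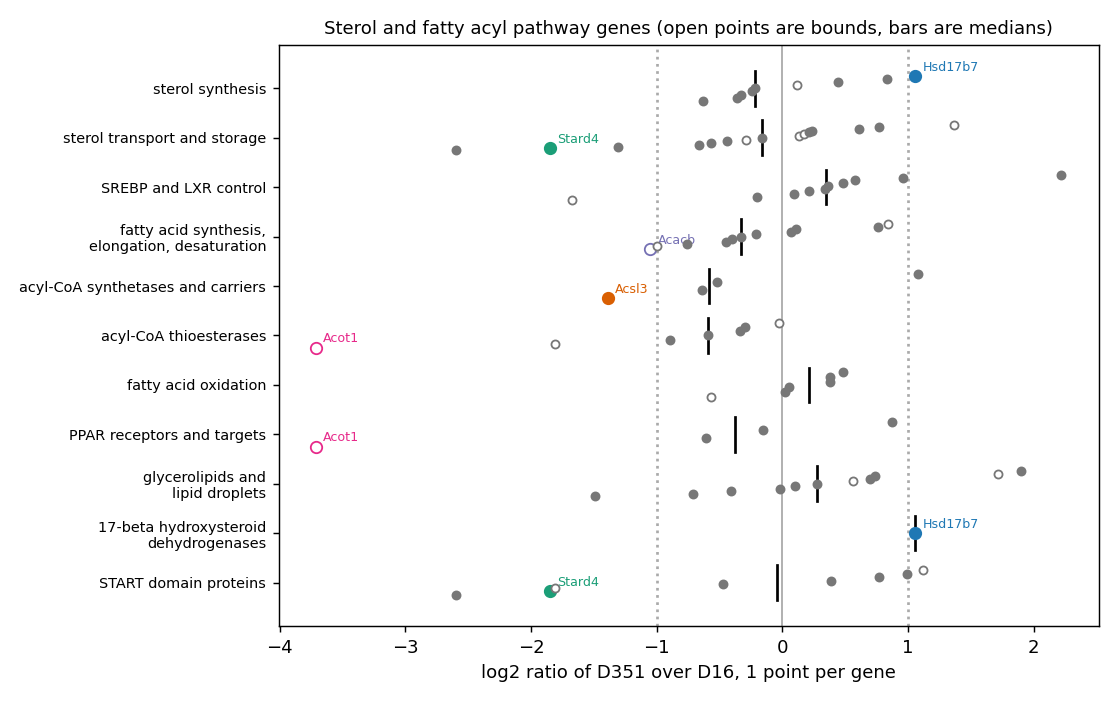
Log2 ratio of D351 over D16 (x axis) for every measured gene of 11 pathway lists (y axis), with members coloured and named, open points for bounds, black bars for list medians and dotted lines at 2-fold. Acot1 at -3.71 is the lowest point, a bound, and the sterol synthesis points run up to Hsd17b7 at 1.06.

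Downstream of these enzymes, 6 measured genes of fatty acid oxidation had a median log2 ratio of 0.21, and 0 were past 2-fold in either direction. Cpt1c, a neuronal relative of the carnitine transferases that malonyl-CoA binds, read 126.0 and 163.7 (log2 0.38). Ppara, the receptor known to control Acot1, was under the floor on both arrays (8.6 and 0.8), as were the coactivators Ppargc1a and Ppargc1b. Ppard read 238.9 and 156.5 (-0.61), and Fabp3, a fatty acid carrier, read 302.7 and 273.3 (-0.15, an _r probe set). Rxra, in the same list of PPAR receptors and targets, was higher in D351 (68.0 and 124.4, 0.87), with another probe set under the floor. In glycerolipid synthesis and lipid droplets (11 measured, median 0.28), Agpat1, which adds the second acyl group to glycerol phosphate, read 51.4 and 18.3 (2.81-fold lower). Lpin1, a phosphatidate phosphatase, read 15.6 and 55.3 (at least 3.29-fold higher in D351). Agpat5 differed by probe set, with 56.3 and 209.4 on one (log2 1.90) and 96.7 and 62.2 on another (-0.64).

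Markers of lipid-rich cell types were at or near the floor. Of 11 adipocyte markers 1 was on the array, Retn (17.4 and 5.8), and of 10 hepatocyte markers 2 were, Hnf4a (24.7 and 13.7) and Apoa1 (1.4 and 1.5). Cell cycle genes and a list of embryonic fibroblast genes are given beside the shares of all measured genes, 8.58% at least 2-fold lower in D351 and 9.5% at least 2-fold higher. Both lists were drawn up with earlier results of these data known, so nothing is read from their counts against those shares. Of 6 measured cell cycle genes, 6 were at least 2-fold lower in D351, and their summed signal was 948.6 in D16 and 237.2 in D351. Of 6 measured genes in the embryonic fibroblast list, 5 were higher in D351 by at least 2-fold and Tcf4 was at least 2-fold lower. Their summed signal was 997.2 in D16 and 2454.2 in D351. Embryonic fibroblasts formed the feeder layer, but whether these signals came from feeder cells or from the clones themselves was not tested. The part of either list in the lipid genes was not tested. In bulk RNA, fewer cells that express a gene and less RNA per cell cannot be told apart.

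Gene position was not used in the choice of members. Around Stard4 on chromosome 18, 8 of the 10 nearest measured genes had a ratio below 0, among them the adjacent Wdr36 (270.5 and 107.2, 2.52-fold lower in D351) and Gypc (81.0 and 36.0, 2.25-fold lower). On the whole chromosome 73.7% of 137 measured genes were below 0 (median log2 -0.34), so Stard4 lay on a chromosome with low ratios and had a lower ratio than each of these 10 neighbours (that of Cdc23, at most -0.96, is a bound). Around Acsl3 on chromosome 1, 7 of 10 were below 0, against 42.7% of 295 genes on that chromosome. At least 2-fold lower were 3 of the 10, Tmem198 (2.60-fold), Pid1 (2.12-fold) and Rhbdd1 (2.03-fold). Over all measured genes this share was 8.58%, and nothing is read from so few genes. Around Acot1 on chromosome 12, the neighbour Acot2 had a log2 ratio of -0.89 and Dnal1, on the other side, had 0.81. The median of its 10 neighbours was 0.28. The neighbours of Acacb ran from -0.76 to 1.85 (median 0.07), with Tmem119 at 131.7 and 475.3 (3.61-fold higher in D351), and those of Hsd17b7 from -0.69 to 0.73 (median -0.11). Hsd17b7 and Acsl3 lie on the same chromosome and had ratios of opposite sign.

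**Figure D4:**
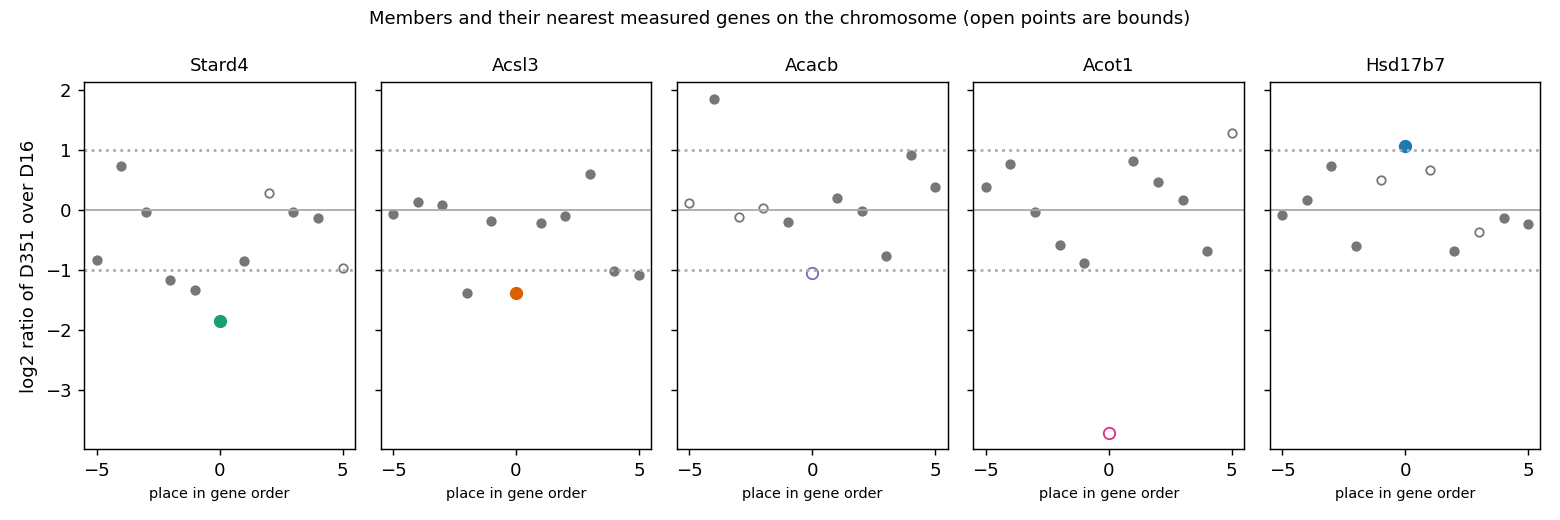
Log2 ratio of D351 over D16 (y axis) of each member (coloured, place 0) and of the 5 nearest measured genes on each side in the RefSeq gene order (grey), with open points for bounds and dotted lines at 2-fold. Acot1 at -3.71 lies far below all 10 of its neighbours, whereas Wdr36 at -1.34 and Gypc at -1.17 lie near Stard4 at -1.85.

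The genes closest to each member in signal were found by distance in log2 signal over the 2 arrays. Those of Stard4 were Efna5, an ephrin ligand (199.2 and 61.2, distance 0.125), and Slc25a30, a mitochondrial carrier (185.1 and 54.8, 0.135). Those of Acsl3 were Ebna1bp2 (61.0 and 23.1, 0.008) and Rbm28 (61.3 and 23.7, 0.033), both nucleolar proteins, and those of Hsd17b7 were Slc35e2 (23.1 and 48.9, 0.028) and Lyrm4 (23.2 and 46.9, 0.036). For Acot1 they were the adhesion molecule Alcam (236.7 and 17.7, 0.134) and Map2 (173.0 and 8.4, 0.341). Rita1 and Suv39h2 equalled Acacb at 34.7 in D16, and all 3 were under the floor in D351. With 2 arrays, such closeness says only that both signals were alike.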

How the data were processed

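Total RNA of clones D16 and D351 was measured on 1 MG-U74B array each. The deposited values are intensity on a linear scale, 1 per probe set. The software, background correction and presence calls behind them are not given in the sources used here, and near-equal trimmed means are what arrays scaled to a common target have, so a change shared by all transcripts would not show. Of 12477 probe sets, 66 were controls. Symbols came from the platform annotation, matched by gene identifier to RefSeq (GRCm38.p6): 10581 probe sets had 1 symbol, 178 several and 1652 were unnamed here. Of the 10581, 10550 matched and 0 were renamed.

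The floor (16.8) was the pooled 50th percentile, and log2 ratios were taken on values raised to it. For gene counts the probe set of highest mean signal stood for its gene. As each clone had 1 array, no test was possible and no p-value is given. Named genes were the members, up to 8 genes past 2-fold per list, members' relatives, named sterol regulators, neighbours and the 2 nearest genes in signal; further list members are named as examples, chosen after their values were seen. The members and all lists were chosen with earlier results of these data known. Alternatives were other scalings (median, quantile, loess with span 0.3), other floors (25th percentile, 4.6, and 75th, 53.5), size rules of 1.5-fold and 3-fold, the median over probe sets, plain probe sets, the floor reached on both arrays and a pseudocount of 16. The code was checked on simulated arrays. Python 3.11.15, numpy 2.4.6, pandas 2.3.3 and statsmodels 0.14.6 were used.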

Additional observations from a re-analysis of the deposited data

How the results depend on the processing

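The member ratios kept their direction under all alternatives that gave one. Another floor, a pseudocount or another size rule cannot turn the sign of a ratio of 2 values, so there this holds by construction. Median scaling, quantile normalization and loess correction left each member gene on the same side of 2-fold. With the floor at the 75th percentile, Acacb and Hsd17b7 had no ratio, and the D351 value of Acsl3 (23.2) lay under the floor. The Acsl3 log2 ratio of -0.18 is then a bound set by the floor and gives no size. At this floor 2 member genes were past 2-fold lower and 0 higher. Over all pathway genes the counts were then 4 lower and 3 higher (9 and 7 as reported). The shares of all measured genes were 6.35% and 7.12% of 2962 (8.58% and 9.5% of 4916 as reported). With the floor at the 25th percentile the pathway counts were 15 and 13, against 11.5% and 12% of all 6543 genes measured there. Acot1 was then above the floor on both arrays, with a log2 ratio of -5.32. With the floor at the 75th percentile its ratio was a bound of -2.03. A pseudocount of 16 in place of the floor took Acsl3 (-0.97), Acacb (-0.76) and Hsd17b7 (0.71) short of 2-fold. With a 3-fold rule 2 members were lower and 0 higher, and 5 and 3 pathway genes, against 2.79% and 3.6% of all measured genes. With a 1.5-fold rule 18 and 17 pathway genes were past it, against 20.4% and 19.3% of all measured genes. Because the shares over all genes moved too, nothing is read from the change in the pathway counts. With the floor reached on both arrays 2 members were lower (Stard4 and Acsl3), and with plain probe sets 0 were higher. A minimum difference equal to the floor changes nothing by construction. List medians changed sign with the floor at the 25th percentile for sterol transport (0.21) and the START domain list (0.40), and at the 75th for sterol synthesis (0.42). No paired analysis was possible because each clone has 1 array. The signal near the floor limits Acacb, Hsd17b7 and the dimmer Stard4 and Acsl3 probe sets.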
